A study of Mus musculus with 6 samples.

Results

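The interferon response genes are 32 of the 27131 genes in a table of estimated counts from the levator ani/bulbocavernosus muscle, a pelvic muscle of the male mouse that responds to androgens. They were taken by symbol, and each symbol matched 1 row. Muscle of 3 knock-in mice labelled 113Q, a model of spinal and bulbar muscular atrophy (SBMA), was set against that of 3 wild-type (WT) mice. All 6 mice were 14 weeks old and kept on standard chow. SBMA is an inherited disease of motor neurons and muscle in which the glutamine repeat of the androgen receptor is expanded. The labels give no strain, litter or treatment, and 1 library was made per mouse. Whole muscle was sequenced, so fewer cells of a type and less RNA per cell cannot be told apart in any value below.

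Interferons are secreted proteins that cells release when they sense foreign or misplaced nucleic acid. In the type I pathway, the interferon receptor activates STAT2, which joins IRF9 in a complex that binds interferon-stimulated response elements in promoters. The induced genes encode sensors of RNA, proteins that block viral RNA or protein, and the factors that keep the pathway running. Interferon gamma acts through another receptor, and it induces guanylate-binding proteins, immunity-related GTPases and the machinery of antigen presentation. Skeletal muscle fibres carry the receptors for both types and respond to them.

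The response element is a promoter feature that does not depend on the measured counts, and as searched here only some of these genes held it. Promoter windows from RefSeq (build GRCm38.p6, 250 bases before to 50 after a gene's start) were at hand for 24 of the 32 genes. The core of the response element, read as GAAA, any pair of bases and GAAA again, was searched on both strands and stood in a window of 11 of these 24 genes, against 3.99% of all 27025 genes with a window. A STAT dimer motif, TTCNNNGAA, which by its letters reads the same on both strands, stood in 6 of the 24, against 9.55% of all genes. In Bst2 the STAT motif overlaps the response element core. In Ifitm3 it overlaps the downstream of its 2 cores. The sequences shown here are the core-bearing stretches of 3 genes whose transcripts were higher in 113Q muscle (Rsad2, Ifit1 and Stat2) and of 3 whose difference did not pass the test (Ifit3, Isg15 and Bst2). Capitals mark the core, which reads TTTC, a pair of bases and TTTC where it lies on the other strand. Each line runs 5′ to 3′ on the gene's strand.
Rsad2: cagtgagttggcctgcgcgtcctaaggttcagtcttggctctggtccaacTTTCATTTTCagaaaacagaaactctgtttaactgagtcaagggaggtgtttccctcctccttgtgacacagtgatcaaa
Ifit1: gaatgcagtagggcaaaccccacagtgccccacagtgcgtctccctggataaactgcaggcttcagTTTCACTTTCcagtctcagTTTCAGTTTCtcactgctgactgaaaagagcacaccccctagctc
Stat2: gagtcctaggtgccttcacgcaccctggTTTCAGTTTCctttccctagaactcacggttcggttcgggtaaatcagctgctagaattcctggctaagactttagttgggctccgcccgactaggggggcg
Ifit3: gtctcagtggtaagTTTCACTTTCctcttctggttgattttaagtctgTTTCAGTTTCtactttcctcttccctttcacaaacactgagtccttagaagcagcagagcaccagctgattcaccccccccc
Isg15: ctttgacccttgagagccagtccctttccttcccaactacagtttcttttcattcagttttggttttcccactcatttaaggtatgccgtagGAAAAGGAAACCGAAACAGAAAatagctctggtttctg
Bst2: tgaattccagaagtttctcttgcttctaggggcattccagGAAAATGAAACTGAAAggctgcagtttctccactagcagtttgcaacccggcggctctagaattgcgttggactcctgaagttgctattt
These stretches lie at chr12:26456493-26456622 (minus strand) for Rsad2, chr19:34640719-34640848 (plus) for Ifit1, chr10:128270248-128270377 (plus) for Stat2, chr19:34583359-34583488 (plus) for Ifit3, chr4:156200859-156200988 (minus) for Isg15 and chr8:71537513-71537642 (minus) for Bst2. Ifit1 and Ifit3 each hold 2 separate cores, Isg15 holds 3 overlapping ones and Bst2 holds 2 overlapping ones.

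The libraries held 67897870, 70531556 and 73873481 estimated counts in 113Q mice and 43581087, 68983982 and 65405514 in WT mice. All levels below are CPM, counts per 1000000 of a library's total after TMM scaling, which sets libraries to a common level over most genes. The TMM factors were 1.26 to 1.32 in 113Q and 0.768 to 0.794 in WT, so they follow the group, and the values show change relative to the other genes. The 10 skeletal myofibre markers summed to 41970 to 50298 CPM in 113Q and 176864 to 201510 CPM in WT, so the labelled tissue's defining transcripts were abundant in every library. All 10 were lower in 113Q (edgeR, median log2 fold change -1.81), among them Ckm and Acta1, against 18.1% of all tested genes. Of these, Myh4 did not pass without 113Q mouse 3 or without WT mouse 1, 2 or 3 (edgeR adjusted p 0.0789 to 0.126). With library totals alone 7 of the 10 were lower (median -1.09), against 4.19% of all tested genes. The part of this shift in the interferon response genes was not tested. Libraries also differed in Epcam, an epithelial adhesion gene, with 8.29 and 10.2 CPM in 113Q mice 2 and 3, 3.83 CPM in WT mouse 2, and 0 or 0.0385 CPM in the other 3.

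Of the 32 interferon response genes, 12 were higher in 113Q muscle, 1 was lower and 19 did not pass the test (edgeR quasi-likelihood test, Benjamini-Hochberg adjusted p below 0.05 over 16960 tested genes). All 32 passed the filter on low counts, and the 13 that passed the test compare with 34.6% of all tested genes in either direction. The 12 higher genes are 37.5% of the list, against 16.5% of all tested genes, and the 1 lower gene is 3.13% of it, against 18.1%. The 12 higher genes comprised 4 transcription factors (Irf3, Irf7, Irf9 and Stat2), 1 RNA sensor (Dhx58) and Xaf1, which encodes a partner of an apoptosis inhibitor. The other 6 belong to families of antiviral effectors (Oasl1, Oasl2, Mx2, Rsad2, Cmpk2 and Ifit1), although RefSeq lists Mx2 as a transcribed pseudogene. Rises ran from 1.35-fold for Irf3 to 4.27-fold for Oasl1, and 5 of the 12 were at least 2-fold, which is 15.6% of the list, against 5.33% of all tested genes. The median log2 fold change was 0.32 over the 32 genes and 0.01 over all tested genes. Since the genes were chosen with earlier results of these data known, these counts and medians are descriptions.

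Without 113Q mouse 2, 6 of the 32 were higher and 2 lower, against 11.6% and 13.6% of all genes tested in that fit. In the 3 libraries with Epcam below 1 CPM, which leave 113Q mouse 1 alone against WT mice 1 and 3, 2 were higher (Cmpk2 and Rsad2), which is 6.25% of the list, against 7.48% of all genes, and 1 was lower, against 10.5%. The share of higher genes there was thus no greater than that of all genes, while the median was 0.29. Only the WT mice give a spread in that fit, and the lone 113Q mouse is assumed to vary like them. At a threshold of 0.01, 6 were higher and 1 lower, against 8.62% and 11.6% of all genes, and at 0.10, 15 were higher and 2 lower, against 21.3% and 21.7%. Library totals in place of TMM factors shifted the whole distribution, with a median over all tested genes of 0.73 in place of 0.01. In that scaling 30 of the 32 genes were called higher, against 64.9% of all genes, and 0 lower, against 4.19%, and their median was 1.04.

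**Figure D1:**
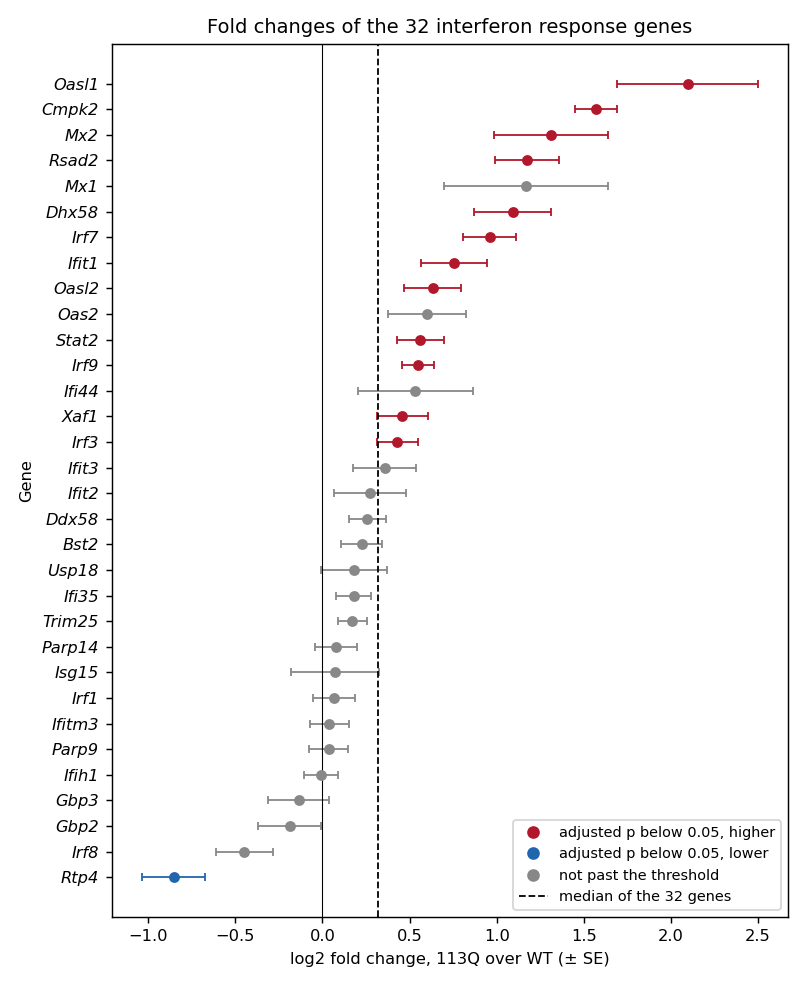
Log2 fold change, 113Q over WT, of the 32 interferon response genes (horizontal axis, points with SE from the edgeR fit, n = 3 mice per group), sorted from the largest rise at the top. Red points are the 12 genes called higher, the blue point is Rtp4, the 1 gene called lower, grey points did not pass the threshold, and the dashed line is the median of 0.32.

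All 12 higher genes had every 113Q mouse above every WT mouse. So did 5 genes that did not pass the test, namely Oas2, Mx1, Ddx58, Trim25 and Ifi35. In all, 17 of the 32 genes (53.1%) lay wholly above WT, against 25.1% of all tested genes, and 2 (6.25%, Rtp4 and Irf8) lay wholly below, against 24.8%. The remaining 13 overlapped between the groups.

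Among the transcription factors, those of the type I pathway were higher, while Irf1 and Irf8 did not pass the test. Irf7, the interferon-induced factor that amplifies type I interferon transcription, was at 7.83, 9.32 and 7.64 CPM in 113Q mice, against 3.94, 4.32 and 4.47 CPM in WT mice. Every 113Q mouse was above every WT mouse, and Irf7 was 1.95-fold higher (log2 fold change 0.96 ± 0.15 SE, edgeR adjusted p = 0.00185). Irf9, the DNA-binding partner of STAT2, was at 20.2, 20.0 and 20.2 CPM in 113Q mice and at 13.1, 13.6 and 14.7 CPM in WT mice. The 113Q mice differed from each other by little (SD 0.124 CPM), and the rise was 1.46-fold (log2 fold change 0.55 ± 0.09 SE, edgeR adjusted p = 0.00262). Stat2 was at 18.7, 21.3 and 19.4 CPM in 113Q mice and 10.9, 14.2 and 15.0 CPM in WT mice, with WT mouse 1 the lowest. It was 1.48-fold higher (log2 fold change 0.56 ± 0.14 SE, edgeR adjusted p = 0.013), a call lost without 113Q mouse 2 (edgeR adjusted p = 0.0541).

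Irf3, the factor that waits in the cytoplasm and is activated by phosphorylation after RNA or DNA is sensed, was at 34.5, 36.2 and 38.9 CPM in 113Q mice and 31.8, 25.8 and 23.9 CPM in WT mice. The groups did not overlap, but WT mouse 1 came close to the lowest 113Q mouse. The 1.35-fold rise (log2 fold change 0.43 ± 0.12 SE, edgeR adjusted p = 0.0218) was lost without WT mouse 2 (edgeR adjusted p = 0.0595), WT mouse 3 (0.0744), 113Q mouse 2 (0.057) or 113Q mouse 3 (0.072). Irf1, which interferon gamma induces strongly, was at 18.7, 19.6 and 18.0 CPM in 113Q mice and 15.0, 19.7 and 19.0 CPM in WT mice, and did not pass (log2 fold change 0.06 ± 0.12 SE, edgeR adjusted p = 0.719). Irf8, a lineage factor of macrophages and dendritic cells, was at 4.86, 7.08 and 5.82 CPM in 113Q mice and 8.23, 8.06 and 7.93 CPM in WT mice. All 3 113Q mice were below the WT mice, yet the log2 fold change of -0.45 ± 0.17 SE did not pass (edgeR adjusted p = 0.0686). It passed with DESeq2 (adjusted p = 0.039) and in edgeR without 113Q mouse 2 (adjusted p = 0.0457), and with library totals alone its sign turned (0.27, edgeR adjusted p = 0.171).

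**Figure D2:**
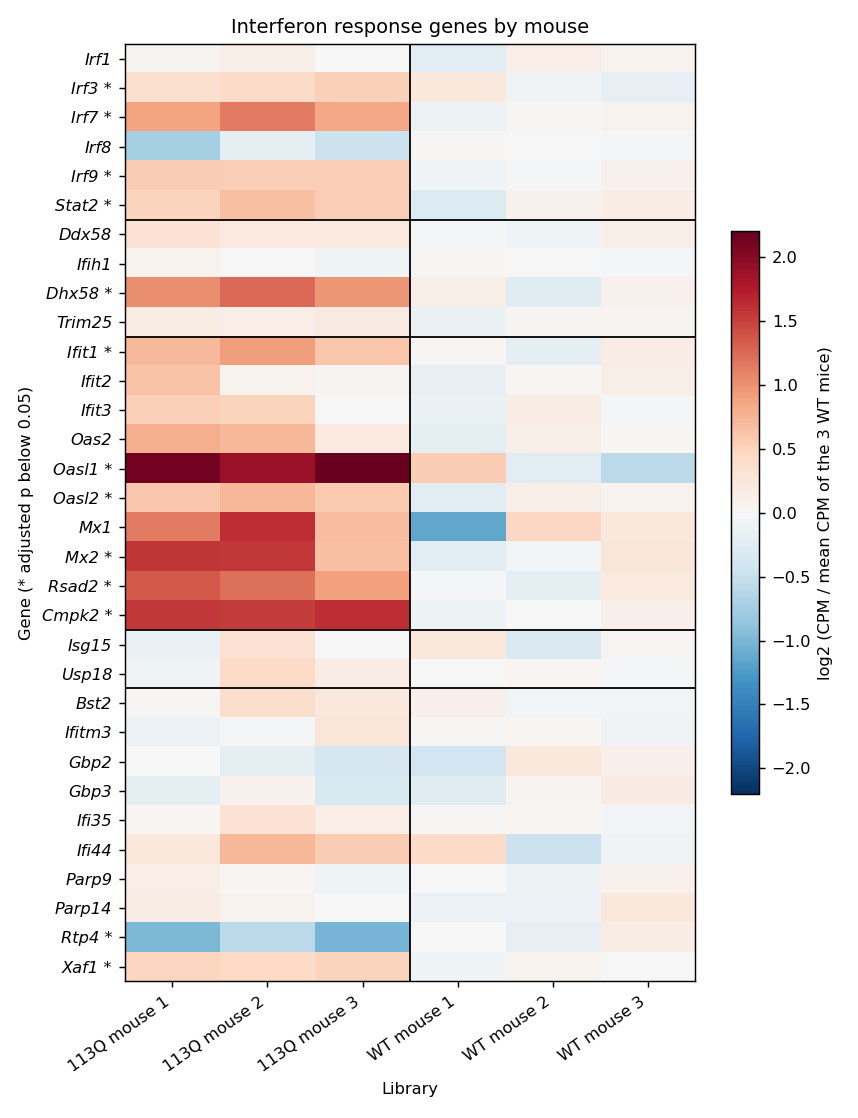
Log2 ratio of each library's CPM to the mean of the 3 WT mice for the 32 genes, with 113Q mice 1 to 3 left of WT mice 1 to 3 and genes grouped by role (red above, blue below the WT mean, an asterisk marks an adjusted p below 0.05). Irf7, Dhx58, Oasl1, Rsad2 and Cmpk2 are red in all 3 113Q mice, and Rtp4 is blue there. Irf8 is a paler blue, with 113Q mouse 2 nearest to the WT mean, and the ISG15 system and guanylate-binding rows are pale.

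The 3 receptors of the RIG-I family sense RNA in the cytoplasm, and 1 of their genes, Dhx58, passed the test. Dhx58 encodes LGP2, the member without signalling domains, which tunes the others. It was at 2.63, 3.09 and 2.54 CPM in 113Q mice and 1.42, 1.08 and 1.39 CPM in WT mice, 2.13-fold higher (log2 fold change 1.09 ± 0.22 SE, edgeR adjusted p = 0.00631). Every 113Q mouse stood well above the WT range. Ddx58, which encodes RIG-I, was at 15.5, 14.4 and 14.4 CPM in 113Q mice and 12.1, 11.5 and 13.4 CPM in WT mice. The groups did not overlap, but the log2 fold change of 0.26 ± 0.11 SE did not pass (edgeR adjusted p = 0.096). Ifih1, which encodes MDA5, the sensor of long double-stranded RNA, was at 16.4, 15.5 and 14.5 CPM in 113Q mice and 15.9, 15.4 and 15.3 CPM in WT mice, with a log2 fold change of -0.01 ± 0.10 SE (edgeR adjusted p = 0.961) that turned to 0.71 with library totals alone. Trim25, a ubiquitin ligase that acts with RIG-I, averaged 42.8 ± 0.888 CPM in 113Q mice and 38.02 ± 3.00 CPM in WT mice (SD, n = 3 each), with a log2 fold change of 0.17 ± 0.08 SE (edgeR adjusted p = 0.147).

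Rsad2 and Cmpk2 had the smallest adjusted p among the antiviral effectors. They are neighbours on chromosome 12, at chr12:26442746-26456452 on the minus strand and chr12:26469204-26479837 on the plus strand (GENCODE M21, GRCm38), and are transcribed away from each other. Cmpk2, a nucleotide kinase of mitochondria, was at 14.1, 14.0 and 14.8 CPM in 113Q mice and 4.44, 4.79 and 5.22 CPM in WT mice. The groups were far apart, at 2.97-fold (log2 fold change 1.57 ± 0.12 SE, edgeR adjusted p = 6.58e-05). Rsad2, which encodes viperin, a radical SAM enzyme that makes a chain-terminating nucleotide, was at 9.43, 8.56 and 6.91 CPM in 113Q mice and 3.58, 3.19 and 4.27 CPM in WT mice. It was 2.25-fold higher (log2 fold change 1.17 ± 0.18 SE, edgeR adjusted p = 0.00186), and the lowest 113Q mouse was above the highest WT mouse. Both genes kept their call in the 17 alternatives other than the thresholds, 1 of which has a single 113Q mouse and takes its spread from WT mice alone.

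The 2 OAS-like genes sit side by side on chromosome 5, Oasl2 at chr5:114896936-114912234 and Oasl1 at chr5:114923240-114937915. Oasl1, which in the mouse restrains translation of Irf7, was a low-abundance transcript, with 78, 67 and 84 counts in 113Q mice and 10, 9 and 7 counts in WT mice. On the CPM scale it was at 0.871, 0.749 and 0.901 in 113Q mice and 0.296, 0.170 and 0.135 in WT mice. It had the largest fold of the 32 genes, 4.27-fold (log2 fold change 2.09 ± 0.40 SE, edgeR adjusted p = 0.00479), on these few counts. Oasl2 was at 6.41, 6.998 and 6.27 CPM in 113Q mice and 3.58, 4.62 and 4.47 CPM in WT mice, 1.55-fold higher (log2 fold change 0.63 ± 0.16 SE, edgeR adjusted p = 0.0173). Its groups did not overlap, and the call was lost without 113Q mouse 2 (edgeR adjusted p = 0.0696). Oas2, which makes the short oligoadenylates that activate RNase L, was at 3.997, 3.85 and 2.67 CPM in 113Q mice and 2.01, 2.53 and 2.39 CPM in WT mice. Mouse 3 was the lowest of the 113Q mice, and the log2 fold change of 0.60 ± 0.22 SE did not pass (edgeR adjusted p = 0.0697), though it did without that mouse (0.046).

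The 3 IFIT genes of the list lie in a cluster on chromosome 19. Ifit1, whose protein binds RNA with foreign ends, passed while its relatives did not. Ifit1 (chr19:34640871-34650009) was at 4.20, 4.86 and 3.94 CPM in 113Q mice and 2.64, 2.21 and 2.87 CPM in WT mice, 1.69-fold higher (log2 fold change 0.75 ± 0.19 SE, edgeR adjusted p = 0.0156). The groups did not overlap, and without 113Q mouse 2 the call was lost (edgeR adjusted p = 0.0702). Ifit3 (chr19:34583531-34588731) was at 8.26, 8.12 and 5.81 CPM in 113Q mice and 5.24, 6.44 and 5.62 CPM in WT mice (log2 fold change 0.36 ± 0.18 SE, edgeR adjusted p = 0.162). Here 113Q mouse 3 fell within the WT range. Ifit2 (chr19:34550694-34576419) was at 6.64, 4.55 and 4.48 CPM in 113Q mice and 3.82, 4.40 and 4.74 CPM in WT mice (log2 fold change 0.27 ± 0.21 SE, edgeR adjusted p = 0.342). Only 113Q mouse 1 was above the WT range for Ifit2. The differences between the fold changes of these genes were not tested.

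Mx1 and Mx2 belong to a family of dynamin-like GTPases that trap viral ribonucleoproteins, but RefSeq lists both as transcribed pseudogenes in the C57BL/6J reference. Mx2 was at 2.29, 2.26 and 1.21 CPM in 113Q mice and 0.651, 0.736 and 0.924 CPM in WT mice, with 113Q mouse 3 nearest to WT. It was 2.48-fold higher (log2 fold change 1.31 ± 0.33 SE, edgeR adjusted p = 0.0151), a call lost without 113Q mouse 1 (edgeR adjusted p = 0.0541) or 113Q mouse 2 (0.0629) and with voom (limma adjusted p = 0.0637). Mx1 rested on 65, 91 and 49 counts in 113Q mice and 5, 24 and 20 counts in WT mice. Its log2 fold change of 1.17 ± 0.47 SE did not pass (edgeR adjusted p = 0.0894), although its groups did not overlap.

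**Figure D3:**
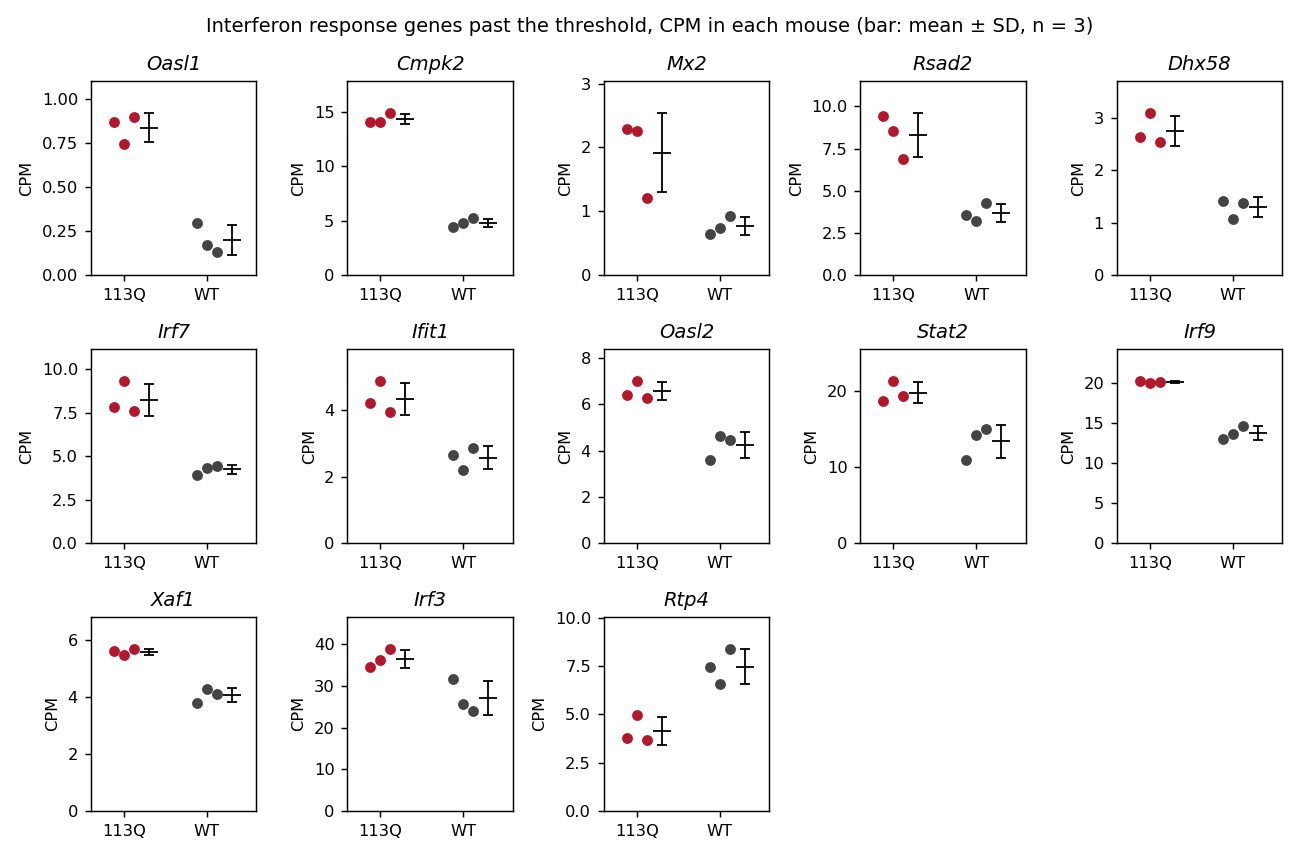
CPM (vertical axis from 0, 1 panel per gene) of the 13 interferon response genes past the threshold, with each mouse as a point, 113Q in red left of WT in grey, and mean ± SD beside them (n = 3 each). The groups do not overlap in any panel, Cmpk2 and Irf9 have tightly grouped 113Q mice, and Mx2 has one 113Q mouse near the WT level.

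The ISG15 system did not pass. Isg15 itself, a ubiquitin-like protein joined to other proteins after interferon, was at 1.54, 2.15 and 1.69 CPM in 113Q mice and 2.01, 1.38 and 1.73 CPM in WT mice (log2 fold change 0.07 ± 0.25 SE, edgeR adjusted p = 0.848). Usp18, the protease that removes ISG15 and also damps the type I receptor, was at 2.98, 4.19 and 3.53 CPM in 113Q mice and 3.14, 3.25 and 3.06 CPM in WT mice (log2 fold change 0.18 ± 0.19 SE, edgeR adjusted p = 0.504). In both genes the groups overlapped, with 113Q mouse 2 the highest of the 6 libraries.

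Among the remaining members, 1 rose, 1 fell and 8 did not pass. Rtp4, a receptor transporter protein that interferon induces, was at 3.78, 4.95 and 3.69 CPM in 113Q mice and 7.46, 6.59 and 8.39 CPM in WT mice. It was lower in every 113Q mouse and fell by 0.85 on the log2 scale (0.18 SE, edgeR adjusted p = 0.00737). The call was lost with library totals alone (log2 fold change -0.14, edgeR adjusted p = 0.531). In the annotation, 13.9% of its exon bases are shared with another transcript on the same strand. Xaf1, which binds the apoptosis inhibitor XIAP, was at 5.59, 5.47 and 5.66 CPM in 113Q mice and 3.79, 4.28 and 4.08 CPM in WT mice. The groups did not overlap at 1.37-fold (log2 fold change 0.46 ± 0.15 SE, edgeR adjusted p = 0.0427). That call was lost without any 1 of the 6 mice, with edgeR adjusted p of 0.0791, 0.104 and 0.121 without 113Q mice 1, 2 and 3 and 0.0962, 0.0559 and 0.0893 without WT mice 1, 2 and 3.

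Of the 8, Bst2, the tetherin that holds budding virus at the cell surface, averaged 18.7 ± 2.30 CPM in 113Q mice and 16.0 ± 1.13 CPM in WT mice (SD, n = 3 each, edgeR adjusted p = 0.179). Ifitm3, which blocks virus in endosomes, averaged 36.4 ± 5.39 CPM in 113Q mice and 35.5 ± 1.58 CPM in WT mice (edgeR adjusted p = 0.821). The guanylate-binding proteins Gbp2 and Gbp3, GTPases of the interferon gamma response, had log2 fold changes of -0.19 ± 0.18 SE and -0.14 ± 0.18 SE (edgeR adjusted p = 0.46 and 0.591). With library totals alone these turned to 0.53 and 0.58 and passed (edgeR adjusted p = 0.0315 and 0.0189). Parp9 and Parp14, ADP-ribosyltransferases of the response, stood at 0.03 ± 0.11 SE and 0.08 ± 0.12 SE (edgeR adjusted p = 0.839 and 0.648). Ifi35 had a log2 fold change of 0.18 ± 0.10 SE (edgeR adjusted p = 0.197), and 16.8% of its exon bases overlap an antisense gene. Ifi44 was at 0.860, 1.22 and 1.08 CPM in 113Q mice and 0.977, 0.528 and 0.693 CPM in WT mice (log2 fold change 0.53 ± 0.33 SE, edgeR adjusted p = 0.252).

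The 32 genes also differed widely in level. Per kilobase of exon (CPM divided by the union of exons in GENCODE M21), the highest level was that of Ifitm3, at 53.7 CPM per kilobase in 113Q and 52.3 in WT. Bst2 followed, at 20.7 CPM per kilobase in 113Q and 17.7 in WT, then Ifi35 at 15.7 in 113Q and 13.9 in WT, and Irf3 at 10.6 in 113Q and 7.88 in WT. At the other end were Ifi44 at 0.172 CPM per kilobase in 113Q and 0.120 in WT, Mx1 at 0.200 in 113Q and 0.0868 in WT, and Oasl1 at 0.322 in 113Q and 0.0768 in WT. Cmpk2 stood at 3.44 CPM per kilobase in 113Q and 1.16 in WT, above Irf7 at 2.19 in 113Q and 1.12 in WT and Rsad2 at 1.91 in 113Q and 0.849 in WT.

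The 113Q mice were not equal in these genes. Mouse 2 was the highest 113Q mouse for 15 of the 32 genes, mouse 1 for 11 and mouse 3 for 6. Over all tested genes these shares were 29.6% for mouse 2, 38.8% for mouse 1 and 31.7% for mouse 3. The median log2 ratio of the 32 genes to the WT mean was 0.34, 0.41 and 0.23 in 113Q mice 1, 2 and 3. Of the 12 genes called higher, 113Q mice 1, 2 and 3 were the lowest 113Q mouse for 2, 4 and 6 and the highest for 3, 5 and 4. No share over all genes was taken for the lowest mouse.

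Beside these values stand the promoter letters shown above. Of the 10 called higher genes with a promoter window, 3 hold the response element core (Rsad2, Ifit1 and Stat2). Of the 14 genes with a window whose difference did not pass, 8 hold it (Ifih1, Gbp2, Gbp3, Ddx58, Isg15, Ifitm3, Bst2 and Ifit3). The STAT dimer motif stood in 0 of the 10 higher genes and in 6 of the 14 others (Bst2, Ifi35, Ifit2, Ifitm3, Irf1 and Irf8). In the windows of Irf7, Irf9, Oasl1, Oasl2 and Cmpk2 neither motif stands, which says only that these letters are not in these windows.

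The interferons themselves were at or near 0. Of 9 ligand genes in the table, 7 had no count in any of the 6 libraries, among them Ifnb1, Ifnk and 5 interferon alpha genes. A count of 0 allows up to 0.0322 to 0.0335 CPM in a 113Q library and 0.0566 to 0.0888 CPM in a WT library (3 counts, counting error only). Ifng had 3, 4 and 9 counts in 113Q mice and 1, 2 and 0 in WT mice, and Ifne had 2 counts in 1 113Q mouse. None of the 9 passed the filter on low counts, so no fold is given.

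Receptors and signalling genes moved both ways with TMM factors. Of 19 tested, 3 were higher, 4 lower and 12 did not pass, which is 15.8% higher and 21.1% lower, against 16.5% and 18.1% of all tested genes. Scaled by library totals, 13 of the 19 were called higher and 0 lower, against 64.9% and 4.19% of all genes. Jak1, a kinase of both receptor types, averaged 239.3 ± 2.41 CPM in 113Q mice and 173.8 ± 13.0 CPM in WT mice (SD, n = 3 each, edgeR adjusted p = 0.00343). Stat3 was 1.46-fold higher (edgeR adjusted p = 0.00278). Ifngr2, the second chain of the interferon gamma receptor, averaged 59.4 ± 5.68 CPM in 113Q mice and 85.3 ± 2.79 CPM in WT mice (edgeR adjusted p = 0.00261). Irf2, a repressor that competes with IRF1, averaged 15.9 ± 0.810 CPM in 113Q mice and 25.3 ± 1.13 CPM in WT mice (edgeR adjusted p = 0.000904). With library totals alone the log2 fold changes of Ifngr2 and Irf2 turned to 0.20 and 0.05 and did not pass (edgeR adjusted p = 0.0613 and 0.625). Without 113Q mouse 2 or 113Q mouse 3, 2 genes of this list were lower in place of 4. Over all genes these fits called 2358 of 17298 and 2312 of 17229 lower. The type I receptor chains were looked at after their values were seen. Ifnar2 was 1.38-fold higher (edgeR adjusted p = 0.00938), and Ifnar1 had a log2 fold change of 0.01 ± 0.09 SE (edgeR adjusted p = 0.964).

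Of 19 nucleic acid sensors and adaptors tested, 4 were higher, 1 lower and 14 did not pass. That is 21.1% higher and 5.26% lower, against 16.5% and 18.1% of all tested genes. Scaling by library totals gave 14 higher and 0 lower, against 64.9% and 4.19% of all genes. Tlr3, the endosomal receptor for double-stranded RNA, was at 8.37, 8.69 and 7.73 CPM in 113Q mice and 3.23, 3.47 and 4.66 CPM in WT mice, 2.18-fold higher (edgeR adjusted p = 0.00195). Mavs, the mitochondrial adaptor of RIG-I and MDA5, averaged 51.4 ± 5.69 CPM in 113Q mice and 73.0 ± 3.75 CPM in WT mice, with a log2 fold change of -0.51 (edgeR adjusted p = 0.00461) that turned to 0.21 with library totals alone (adjusted p = 0.0658). Myd88, the adaptor of most Toll-like receptors, and Samhd1, which breaks down nucleotides, were 1.32-fold and 1.26-fold higher (edgeR adjusted p = 0.0339 and 0.0214). Both lost the call without some single mice, with edgeR adjusted p up to 0.128 and 0.0855. Without WT mouse 1 or without 113Q mouse 1, 1 gene of this list was higher, and 2 were higher without WT mouse 3, 113Q mouse 2 or 113Q mouse 3. Over all genes these fits called 2004 to 2336 higher, of 17229 to 17452 tested. Without WT mouse 2, 2 genes of the list were lower, against 2843 of 17424 over all genes.

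Of 52 other interferon-stimulated genes tested, 14 were higher (26.9%, against 16.5% of all genes), 2 were lower (3.85%, against 18.1%) and 36 did not pass. Their median log2 fold change was 0.19, while scaling by library totals gave 44 higher and 1 lower, against 64.9% and 4.19% of all genes. Among those past the test the largest fold was that of Iigp1, an immunity-related GTPase that attacks the vacuoles of parasites, at 66.7, 93.6 and 58.1 CPM in 113Q mice and 9.59, 16.7 and 15.6 CPM in WT mice. Every 113Q mouse was above every WT mouse, at 5.18-fold (log2 fold change 2.37 ± 0.27 SE, edgeR adjusted p = 0.00131). Igtp, another GTPase of that family, averaged 35.4 ± 3.49 CPM in 113Q mice and 15.6 ± 1.49 CPM in WT mice (2.26-fold, edgeR adjusted p = 0.000162), and 8.01% of its exon bases are shared with Irgm2 on the same strand. Nmi, a partner of STAT proteins, was 1.86-fold higher (edgeR adjusted p = 0.00134). Nampt, an enzyme of NAD synthesis on this list because interferon can induce it, averaged 102.3 ± 14.7 CPM in 113Q mice and 254.3 ± 5.92 CPM in WT mice and fell (edgeR adjusted p = 8.79e-05). Without WT mouse 1 or without 113Q mouse 3, 9 genes of this list were higher. Over all genes these fits called 2311 of 17450 and 2013 of 17229 higher.

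Chemokine and antigen presentation genes that interferon gamma induces mostly did not pass. Of the immunity-related GTPases, which it also induces, Iigp1 and Igtp were higher, as given above. Of 10 chemokine and cytokine genes tested, 0 were higher in edgeR, DESeq2 or voom, and 2 were lower in edgeR, the only genes of the list with an unadjusted edgeR p below 0.05. These 2 are 20% of the list, against 18.1% of all tested genes called lower and 16.5% called higher. Scaling by library totals gave 3 higher and 1 lower, against 64.9% and 4.19% of all genes. The 2 lower with TMM factors were Il15, at 1.92, 4.37 and 2.25 CPM in 113Q mice and 9.36, 8.45 and 8.18 CPM in WT mice (edgeR adjusted p = 0.00498), and Cd274, which encodes the checkpoint ligand PD-L1 (edgeR adjusted p = 0.0391, and up to 0.132 without single mice). Cd274 had a log2 fold change of -0.65, and of 0.06 with library totals alone. Of 18 antigen presentation and immunoproteasome genes, 1 was higher, 1 lower and 16 did not pass. That is 5.56% in each direction, against 16.5% higher and 18.1% lower among all tested genes. Library totals in place of TMM factors gave 15 higher and 0 lower, against 64.9% and 4.19% of all genes. H2-Eb1, a chain of the class II complex, was 1.44-fold higher (edgeR adjusted p = 0.0174), a call lost without WT mouse 1 (0.0602) or 113Q mouse 2 (0.0531). Psme1, a proteasome activator subunit, had a log2 fold change of -0.46 (edgeR adjusted p = 0.00297), and of 0.26 with library totals alone (edgeR adjusted p = 0.0152). The summed CPM of this list was 675.8, 987.1 and 926.9 in 113Q mice and 640.5, 709.5 and 681.8 in WT mice, with 113Q mice 2 and 3, the libraries with the most Epcam, the highest. The part of the epithelial transcripts in this was not tested. Without 113Q mouse 1, 7 genes of this list were higher, and 2 without WT mouse 3, while DESeq2 called 5 higher and voom 6. Over all genes the fits without 113Q mouse 1 and without WT mouse 3 called 2336 of 17255 and 2283 of 17452 higher. DESeq2 and voom called 3068 and 3066 of 16960 higher.

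**Figure D4:**
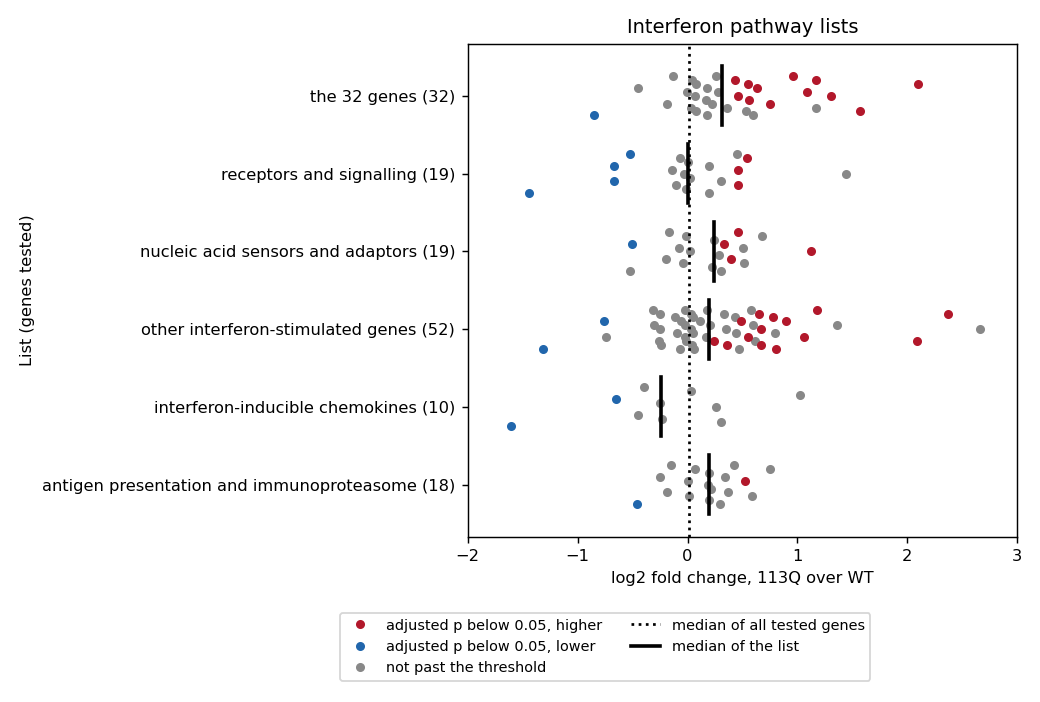
Log2 fold change, 113Q over WT (horizontal axis), of each tested gene in the 32 interferon response genes and in 5 other lists of the pathway (red higher, blue lower at an adjusted p below 0.05, grey neither), with each list's median as a bar and the median of all tested genes as a dotted line. The medians are 0.32 for the 32 genes, 0.01 for receptors and signalling, 0.24 for sensors and adaptors, 0.19 for other interferon-stimulated genes, -0.24 for chemokines and 0.20 for antigen presentation.

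Markers of cell types that carry interferon response genes were read beside these values. Of 12 macrophage markers, 0 passed in edgeR and 0 had an unadjusted p below 0.05; they summed to 136.7 to 153.9 CPM in 113Q and 120.7 to 165.4 CPM in WT, led by Lyz2 and Csf1r. Of 4 tested lymphocyte markers, 0 passed in edgeR and 1 had an unadjusted p below 0.05, and the 10 in the table summed to 3.95 to 5.03 CPM in 113Q and 3.70 to 4.68 CPM in WT. Of 3 tested plasmacytoid dendritic cell markers, 0 passed in edgeR and 1 had an unadjusted p below 0.05. That was Tcf4, called higher by DESeq2 but not by voom, which many cell types express, while Siglech was at 0.536 to 1.15 CPM in 113Q mice and 0.326 to 0.849 CPM in WT. Neutrophil markers summed to 0.882 to 2.07 CPM in 113Q and 1.23 to 2.52 CPM in WT, with 0 of 3 past the test or at an unadjusted p below 0.05 in edgeR and Mpo at 0 in all libraries. All 8 endothelial markers were lower, against 18.1% of all tested genes, with sums of 277.2 to 282.2 CPM in 113Q and 399.9 to 500.5 CPM in WT. Leaving out any 1 mouse gave 7 of the 8 lower, with the call of Tek or Kdr lost. Over all genes those fits called 2312 to 2843 lower, of 17229 to 17452 tested. With library totals alone 0 of the 8 were lower and 1, Tek, was higher. Fibroblast markers summed to 1544 to 2102 CPM in 113Q and 990.3 to 1844 CPM in WT, with 0 of 8 past the test in edgeR and 2 at an unadjusted p below 0.05, while DESeq2 called 2 higher and voom 0. Epithelial markers summed to 1.26, 48.1 and 91.5 CPM in 113Q mice 1, 2 and 3 and to 1.98, 55.05 and 2.39 CPM in WT mice 1, 2 and 3, and 0 of 7 tested passed or had an unadjusted p below 0.05 in edgeR. DESeq2 and voom likewise called 0 macrophage, lymphocyte, neutrophil and epithelial markers. With library totals alone 8 of 12 macrophage, 2 of 4 lymphocyte, 2 of 3 plasmacytoid dendritic cell and 7 of 8 fibroblast markers were higher, and 0 neutrophil and 0 epithelial markers. In that scaling 64.9% of all tested genes were called higher. Without WT mouse 3, 1 macrophage and 3 fibroblast markers were higher. Without 113Q mouse 1, 1 lymphocyte and 1 epithelial marker were higher, and without 113Q mouse 2, 1 plasmacytoid dendritic cell marker was. Over all genes 2283 of 17452 were higher without WT mouse 3, 2336 of 17255 without 113Q mouse 1 and 2004 of 17298 without 113Q mouse 2. The part of macrophage, lymphocyte, plasmacytoid dendritic cell, endothelial, fibroblast and epithelial transcripts in the interferon response genes was not tested.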

How the data were processed

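RNA of whole muscle was sequenced from 3 113Q and 3 WT mice. The deposited table gives the authors' estimated counts for each gene without scaling, and the submitters' processing notes name cutadapt, TopHat2 2.0.9, Bowtie2 2.1.0, Cuffdiff 2.1.1 and build mm10. No source used here states the annotation or how strand was counted, so reads from overlapping antisense genes cannot be told apart. Counts were rounded, since 5.38% to 5.96% of values in a library were fractional (1 of the 192 values of the interferon response genes). The 16960 genes passing filterByExpr (minimum count 10) were fitted in edgeR 4.0.16 (R 4.3.3) with TMM factors and a robust two-sided quasi-likelihood test, adjusted by Benjamini-Hochberg, with standard errors taken as the log2 fold change over the root of F. Every library counted as 1 mouse, and the labels name no batch; p-values measure the spread between these mice. The members and lists were chosen with earlier results of these data known.

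All 32 members are named, those past the threshold of 0.05 with each mouse's value, and from other lists up to 4 genes past it by smallest p; exceptions are said in the text. A further gene that the rule names is not reported here. The code was tested on simulated data with known changes in 200 genes. There edgeR recovered 58.2% of 2-fold changes and fewer of the smaller ones, so a gene that did not pass may still differ. False calls made up 6.67% of calls in edgeR, 19.6% in DESeq2 and 4.55% in voom. Alternatives were DESeq2 1.42.0, voom (limma 3.58.1), other scalings, filters and thresholds, leaving out each mouse, a replicate block and a term for libraries with Epcam of at least 1 CPM. A fit to only the libraries below 1 CPM was added after seeing the data.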

Additional observations from a re-analysis of the deposited data

How the results depend on the processing

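Of the 32 interferon response genes, 12 were called higher and 1 lower in the fit described. DESeq2, voom, RLE factors, both other filters, unrounded values and no robust estimation gave 11 or 12 higher and 1 lower, except for DESeq2 with 2 lower. Over all genes these settings called 2737 to 3068 higher and 2859 to 3428 lower, of 13843 to 21926 tested. The number called higher became 30 with library totals alone, 6 at a threshold of 0.01 and 2 in the libraries with Epcam below 1 CPM, where 113Q is 1 mouse; the number called lower became 0 with library totals alone, 2 at a threshold of 0.10 and 2 with a term for libraries with Epcam of at least 1 CPM (Rtp4 and Irf8). Leaving out 1 mouse gave 6 to 11 higher and 1 to 2 lower. Over all genes those fits called 2004 to 2559 higher and 2312 to 2843 lower, of 17229 to 17452 tested. The median log2 fold change was 1.04 with library totals alone and 0.29 to 0.38 without single mice. All genes called numbered 5869, against 11725 with library totals alone, 3424 at 0.01 and 3127 with Epcam below 1 CPM. In the other pathway lists 32 genes were called, against 91, 19 and 14 in the same settings, and 22 to 33 without single mice. The cause of these shifts was not tested, apart from the threshold, which was changed on the same fit. Keeping only libraries with Epcam below 1 CPM also left fewer libraries, and the 2 changes cannot be told apart.

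Same-numbered mice had correlations of deviations from the group mean of 0.198, 0.236 and -0.274, and differently numbered ones -0.436 to 0.379. Deviations from a group's mean constrain each other, so these values cannot decide whether mouse numbers pair the libraries. With the replicate block 8 members were higher and 1 lower, against 2154 and 2583 of all 16960 tested genes. The median was 0.30, 4737 genes were called in all and 30 in the other lists. Depth limits Oasl1 and Mx1, which had as few as 7 and 5 counts in a WT library.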
